A study of Mus musculus with 8 samples.

Results

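The 10 genes described here encode chemokines that guide dendritic cells and lymphocytes, together with their receptors. The 6 ligands were *Ccl17*, *Ccl22*, *Ccl20*, *Ccl19*, *Cxcl13* and *Cxcl12*, and the 4 receptors were *Ccr4*, *Ccr6*, *Ccr7* and *Cxcr4*. They were chosen by name from the 25965 genes of the deposited table, with values of these libraries already known. *Ccl17*, *Ccl20*, *Ccl22*, *Ccr7* and *Cxcl13* (5 of 10) belong to a list of genes higher at P1.5 in mutant lungs that was drawn from these same libraries, so the P1.5 difference between genotypes is given for the members as a description, with no p-value, and nothing is read from whether a member passed there. Of the 10 genes, 6 (*Ccl17*, *Ccl20*, *Ccl22*, *Cxcl13*, *Cxcl12* and *Cxcr4*) had a mean of at least 0.05 RPKM (reads scaled to gene length in kilobases and to the total of the library) over the libraries and entered the fits. The other 4 (*Ccl19*, *Ccr4*, *Ccr6* and *Ccr7*) did not. The member just inside that limit was *Ccl22*, with a mean of 0.131 RPKM, and the member just outside it was *Ccr7*, with 0.0463 RPKM. *Ccl22* reached the limit only through its P1.5 GFP/GFP libraries, so its fitted values and adjusted p-values in every comparison are a description.

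Total RNA of whole mouse lung was sequenced before birth (E18.5) and after birth (P1.5) in *Wfdc2* +/+ and *Wfdc2* GFP/GFP animals, with 2 libraries in each of the 4 groups and 8 in all. *Wfdc2* encodes a secreted protein with whey acidic protein domains that is made by airway epithelium. In the GFP allele, an IRES-EGFP cassette replaced part of exon 1 and the whole of exon 2, the selection marker was removed by a cross to CAG-Cre mice, and homozygotes came from heterozygous parents, with +/+ littermates as controls. The allele was made in TT2 embryonic stem cells with 129-derived arms, it is carried by all cells of the body, and the age is the only other difference between groups that the labels give. Whether the replicates of a group were separate animals or litters is not stated in the labels, so the p-values below measure the spread between these libraries. *Wfdc2* had 8038 to 32845 reads in +/+ and 0 to 12 reads in GFP/GFP libraries. Totals ran from 19457647 to 37209333 reads, and the limit of detection was set at 3 reads, which is 0.0806 to 0.154 RPM (reads scaled to the library total, as in RPKM but without gene length). Replicate 1 of P1.5 +/+ stood apart from replicate 2 in genes beyond this family. Member results at P1.5 that rest on it are given with and without it, while marker lists are given with all libraries only. The median log2 RPKM of the genes that entered the fits was -0.96 in replicate 1 of P1.5 +/+ and -0.95 in replicate 1 of P1.5 GFP/GFP. In replicate 2 it was -0.22 and -0.63. In every group replicate 1 carried *Xist* reads (4121 to 90980) and replicate 2 nearly none (1 to 13), so the replicate number and the sex of the lungs cannot be told apart. A comparison without 1 library is therefore no longer balanced for them between groups.

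Chemokines are small secreted proteins that bind G protein-coupled receptors on leukocytes and set the direction in which the cells move. CCL17 and CCL22 are both bound by CCR4, and CCL20 by CCR6. CCL19 and CCL21 bind CCR7, which brings mature dendritic cells and naive T cells into lymphoid tissue. CXCL13 draws B cells through CXCR5 and is a defining signal of lymphoid follicles, and CXCL12 acts through CXCR4 in development, blood vessels and the retention of blood cell precursors.

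Promoter sequences are printed for the 4 ligands whose P1.5 values set the pattern described below, as 250 bases up to the RefSeq start site in GRCm38.p6, the genome the files call mm10. Capitals mark a match to any of the motifs searched, GGGNNTTCC and GGANNTTCC (kappa B types) and TATAAA, on both strands.
Ccl17, chr8:94810203-94810452 (+ strand): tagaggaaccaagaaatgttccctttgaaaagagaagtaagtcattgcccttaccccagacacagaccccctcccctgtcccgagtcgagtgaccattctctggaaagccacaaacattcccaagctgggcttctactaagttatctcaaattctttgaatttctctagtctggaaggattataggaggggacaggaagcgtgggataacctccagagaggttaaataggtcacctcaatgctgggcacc
Ccl22, chr8:94745434-94745683 (+ strand): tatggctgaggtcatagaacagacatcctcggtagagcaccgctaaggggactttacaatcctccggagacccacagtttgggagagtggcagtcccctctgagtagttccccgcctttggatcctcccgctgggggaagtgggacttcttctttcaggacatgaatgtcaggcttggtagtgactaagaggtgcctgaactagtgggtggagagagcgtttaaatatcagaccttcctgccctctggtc
Ccl20, chr1:83116516-83116765 (+ strand): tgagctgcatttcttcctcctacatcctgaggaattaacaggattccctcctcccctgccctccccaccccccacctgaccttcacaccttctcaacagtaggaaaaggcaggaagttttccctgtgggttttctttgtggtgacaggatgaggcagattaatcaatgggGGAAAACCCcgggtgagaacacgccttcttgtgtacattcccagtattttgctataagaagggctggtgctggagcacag
Cxcl13, chr5:95956689-95956938 (+ strand): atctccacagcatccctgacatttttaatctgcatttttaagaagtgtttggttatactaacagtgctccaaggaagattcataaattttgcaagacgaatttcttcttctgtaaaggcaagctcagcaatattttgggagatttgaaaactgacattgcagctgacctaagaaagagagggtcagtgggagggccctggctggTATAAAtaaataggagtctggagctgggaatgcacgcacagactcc
*Ccl20* carried GGAAAACCC, the reverse strand of GGGNNTTCC, with its first base at -80 from the start, and *Cxcl13* carried TATAAA at -46. No match to these letters lay in the windows of *Ccl17* and *Ccl22*. RefSeq windows of 300 bases (250 before the start and 50 after) were at hand for 9 of the 10 genes, with *Ccr7* missing. GGGNNTTCC lay in 3 of the 9 (*Ccl20*, *Ccl19* and *Ccr6*, the last with a pair of overlapping matches on opposite strands) against 5.82% of all 32851 windows, TATAAA in 2 (*Cxcl13* and *Cxcr4*) against 13.6%, and GGANNTTCC in 0 against 4.26%. Members were counted by gene and the shares by window, so the counts are not fully alike. *Ccr6* had 2 windows, and only the one that starts at chr17:8242276 held the match. A match describes the letters of the window and not a site in use.

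Levels can be set side by side between genes only per length, and for this the reads recovered from the deposited values were divided by exonic kilobases of the GENCODE gene. Over the 8 libraries *Cxcr4* had the highest mean, 20.1 RPM per exonic kilobase, and *Cxcl12* followed with 9.1, though their ranges (11.1 to 31.2 and 1.52 to 12.1) overlapped. *Ccl17* came next with 3.57, but this mean rested on P1.5 GFP/GFP, where *Ccl17* reached 12.7 against 8.65 for *Cxcl12*. *Cxcl13* (1.45), *Ccl22* (0.341), *Ccl20* (0.311) and *Ccr7* (0.25) were lower, with ranges over libraries that overlapped from each to the next, so their order was not set beyond the spread. *Ccr4* (0.00797) and *Ccr6* (0.00277) rested on at most 2 reads and 1 read in any library, and *Ccl19* had none.

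**Figure D1:**
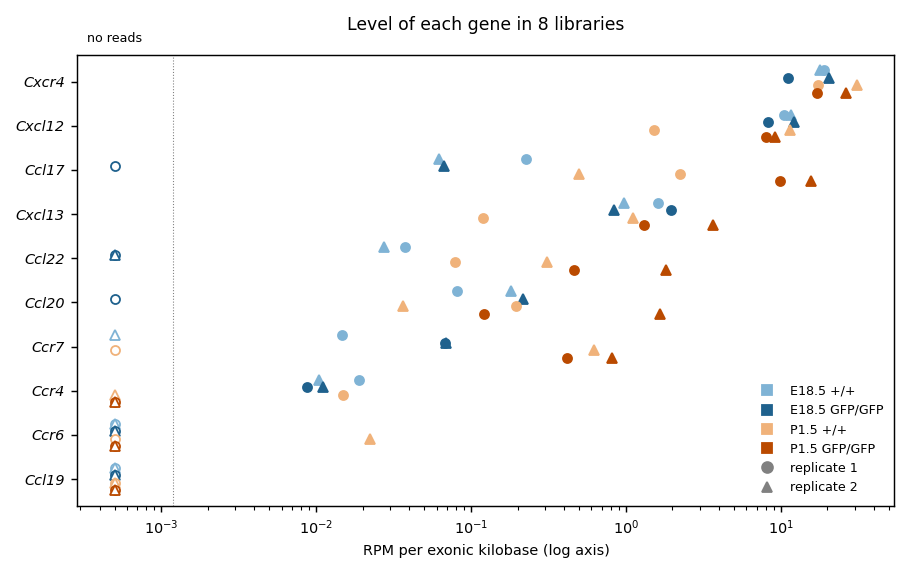
Level of each gene in RPM per exonic kilobase (log axis), 1 point per library, coloured by group and shaped by replicate, with open points at the left for libraries without reads. *Cxcr4* and *Cxcl12* lie highest in most libraries, *Ccl17* spans from no reads to 15.6, and *Ccl19* has no reads in any library.

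*Ccl17* and *Ccl22* were nearly absent before birth and were seen mainly after birth in GFP/GFP lungs. *Ccl17* (chr8:94810453-94812035, plus strand) had 4 reads and 1 read in the E18.5 +/+ libraries, 0 and 1 in E18.5 GFP/GFP, 25 and 5 in P1.5 +/+, and 117 and 235 in P1.5 GFP/GFP, for replicates 1 and 2 in turn. The last group stood at 6.54 ± 2.11 RPM against 0.704 ± 0.632 RPM in P1.5 +/+ (SD, n = 2 each). Both P1.5 GFP/GFP libraries thus lay above every other library, and both P1.5 +/+ libraries lay above all 4 of E18.5. *Ccl22* (chr8:94745590-94751699, plus strand) had 3 and 2 reads in E18.5 +/+, 0 and 0 in E18.5 GFP/GFP, 4 and 14 in P1.5 +/+, and 25 and 123 in P1.5 GFP/GFP. Its P1.5 groups stood at 2.64 ± 2.21 and 0.452 ± 0.379 RPM (SD, n = 2 each) in GFP/GFP and +/+, and the groups did not overlap, although the lower GFP/GFP library held only 25 reads. In whole lung, more cells that make a transcript and more transcript per cell cannot be told apart.

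The P1.5 difference of GFP/GFP minus +/+ was 3.55 (SE 0.84) for *Ccl17* and 2.55 (SE 0.84) for *Ccl22* on the log2 RPKM scale. In pooled RPM the ratio was 9.22 for *Ccl17* (95% interval 6.34 to 13.9) and 6.46 for *Ccl22* (3.95 to 11.2), where the exact intervals cover counting error only. The spread between libraries was wider than counting error. Without replicate 1 of P1.5 +/+ the log2 differences were 4.63 for *Ccl17* and 1.57 for *Ccl22*, and without replicate 2 of P1.5 +/+ they were 2.47 and 3.53. Without replicate 1 or 2 of P1.5 GFP/GFP the difference was 3.88 or 3.22 for *Ccl17* and 3.53 or 1.57 for *Ccl22*. Each of these kept GFP/GFP above +/+.

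Across the 6 members tested, the GFP/GFP libraries lay wholly above +/+ at P1.5 for 3 (*Ccl17*, *Ccl22* and *Cxcl13*) and wholly below for 0. Over all 15627 genes tested, 12.6% lay wholly above and 21.4% wholly below. The median difference of the 6 was 2.48, against -0.20 for all genes. With limma and Benjamini-Hochberg adjustment over all genes, 2 genes passed at 0.05 in this comparison (0.0128%), both lower in GFP/GFP and neither among the members. These values served to choose 4 of the 6, so nothing is read from any of these counts. At an unadjusted p under 0.05, 1710 genes passed.

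**Figure D2:**
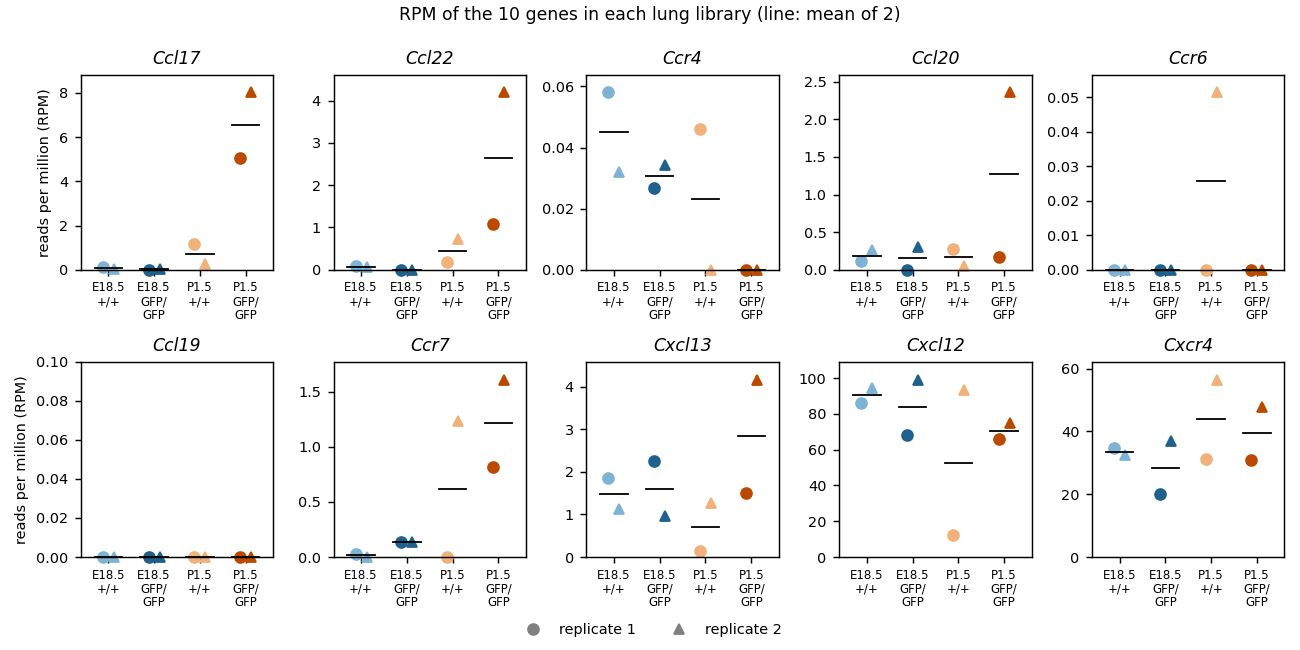
RPM of each of the 10 genes (vertical axes from 0, scaled to each gene) in the 4 groups, circles for replicate 1, triangles for replicate 2 and a line for the mean of 2. *Ccl17*, *Ccl22* and *Cxcl13* have both P1.5 GFP/GFP points above both P1.5 +/+ points, *Ccl20* has only replicate 2 high, and replicate 1 of P1.5 +/+ is lowest for *Cxcl12*.

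CCR4, the receptor that CCL17 and CCL22 share, was at the limit of detection. *Ccr4* (chr9:114490316-114496544, minus strand) had 2 reads and 1 read in E18.5 +/+, 1 and 1 in E18.5 GFP/GFP, 1 and 0 in P1.5 +/+ and 0 and 0 in P1.5 GFP/GFP. No difference was detectable at this depth, where 0 reads allow up to 3. *Dpp4*, whose product is a peptidase that trims CCL22 and CXCL12 among other peptides, had 731 and 1858 reads in P1.5 +/+ and 1003 and 1290 in P1.5 GFP/GFP, a log2 difference of -0.38 (SE 0.54, limma adjusted p = 0.805). *Ackr2*, listed under its older symbol *Ccbp2*, encodes a scavenging receptor of inflammatory CC chemokines. It had 233 and 552 reads in P1.5 +/+ and 146 and 267 in P1.5 GFP/GFP, a difference of -1.20 (SE 0.71, limma adjusted p = 0.587).

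*Ccl20*, the ligand of CCR6 that is made by epithelium and activated leukocytes, was high in 1 library only. The gene (chr1:83116766-83119167, plus strand) had 4 and 8 reads in E18.5 +/+, 0 and 9 in E18.5 GFP/GFP, 6 reads and 1 read in P1.5 +/+, and 4 and 69 in P1.5 GFP/GFP. Replicate 2 of P1.5 GFP/GFP held 2.36 RPM and replicate 1 held 0.173 RPM, which lay between both +/+ libraries, so the P1.5 groups overlapped. The log2 difference at P1.5 was 2.42 (SE 1.55), and 0.54 without replicate 2 of P1.5 GFP/GFP. *Ccr6* (chr17:8236043-8257127, plus strand) had 1 read, in replicate 2 of P1.5 +/+, and 0 in the other 7 libraries. Its level was not detectable in any group.

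*Ccl19* and *Ccr7* form the axis that draws mature dendritic cells toward lymphoid tissue, and only the receptor was measured. *Ccl19* (chr4:42754525-42756577, minus strand) had 0 reads in all 8 libraries, and its span overlaps another listed gene, *4930578G10Rik*. The other CCR7 ligands, listed as *Ccl21a*, *Ccl21b* and *Ccl21c*, also had 0 reads, but these genes have near-identical copies between which reads can be lost, so the zeros are uncertain. *Ccr7* (chr11:99144196-99155077, minus strand) had 1 read and 0 in E18.5 +/+, 5 and 4 in E18.5 GFP/GFP, 0 and 24 in P1.5 +/+ and 19 and 47 in P1.5 GFP/GFP. The P1.5 groups overlapped, with replicate 2 of +/+ at 1.23 RPM between both GFP/GFP libraries at 0.82 and 1.61 RPM. The pooled ratio of GFP/GFP to +/+ at P1.5 was 2.16 (95% counting interval 1.34 to 3.6). The log2 difference of 2.34 turned to -0.10 without replicate 1 of P1.5 +/+, the library with 0 reads. *Ackr4*, listed as *Ccrl1*, encodes a scavenger of CCL19 and CCL21 and followed no genotype order, with 5 and 55 reads in P1.5 +/+ and 12 and 26 in P1.5 GFP/GFP.

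*Cxcl13*, the B cell attractant, differed from *Ccl17* and *Ccl22* in being present before birth. The gene (chr5:95956928-95961067, plus strand) had 64 and 35 reads in E18.5 +/+, 84 and 28 in E18.5 GFP/GFP, 3 and 25 in P1.5 +/+ and 35 and 122 in P1.5 GFP/GFP. The P1.5 groups stood at 0.711 ± 0.811 RPM in +/+ and 2.84 ± 1.88 RPM in GFP/GFP (SD, n = 2 each) and did not overlap, but replicate 2 of +/+ (1.28 RPM) and replicate 1 of GFP/GFP (1.51 RPM) lay close. The P1.5 log2 difference was 2.57 (SE 1.03), and without replicate 1 of P1.5 +/+, which lay 9.3-fold below replicate 2, it was 0.97. At P1.5 only replicate 2 of GFP/GFP (4.17 RPM) lay above the highest E18.5 library (2.26 RPM). Its receptor *Cxcr5* stayed low, with 5 and 11 reads in P1.5 +/+ and 0 and 7 in P1.5 GFP/GFP.

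*Cxcr4* and *Cxcl12* had the highest means over the 8 libraries per exonic kilobase, and the genotype order of *Cxcl12* at P1.5 depended on 1 library. *Cxcl12* (chr6:117168535-117181367, plus strand) had 2968 and 2951 reads in E18.5 +/+, 2533 and 2901 in E18.5 GFP/GFP, 270 and 1812 in P1.5 +/+ and 1533 and 2201 in P1.5 GFP/GFP. In RPM, 7 of the 8 libraries lay between 66.2 and 99.2, and replicate 1 of P1.5 +/+ lay at 12.4, 7.49-fold below replicate 2. The P1.5 log2 difference was 1.05 (SE 0.79) with all libraries and -0.40 without that replicate. *Cxcr4* (chr1:128588199-128592293, minus strand) had 1190 and 1012 reads in E18.5 +/+, 746 and 1078 in E18.5 GFP/GFP, 680 and 1099 in P1.5 +/+ and 719 and 1397 in P1.5 GFP/GFP. Its groups overlapped at both stages, and its P1.5 log2 difference was -0.13 (SE 0.43), with a 95% interval of -1.13 to 0.87, and 0.07 with each library centred on its median. *Ackr3*, listed as *Cxcr7*, encodes the other receptor of CXCL12, which removes it from the surroundings. It had 596 and 714 reads in P1.5 +/+ and 1077 and 2298 in P1.5 GFP/GFP, which did not overlap, and the log2 difference of 0.93 (SE 0.41) did not pass (limma adjusted p = 0.465).

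The question at E18.5 is whether the genotypes differed before birth, and no member did by the test. In E18.5 lungs 0 of the 6 members passed, where 3 of all genes (0.0192%) did, all lower in GFP/GFP, and 683 genes had an unadjusted p under 0.05. Log2 differences of GFP/GFP minus +/+ were -1.09 (SE 0.84) for *Ccl17*, -1.45 (SE 0.84) for *Ccl22*, -1.0 (SE 1.55) for *Ccl20*, 0.03 (SE 1.03) for *Cxcl13*, -0.14 (SE 0.79) for *Cxcl12* and -0.30 (SE 0.43) for *Cxcr4*, each with a limma adjusted p that rounds to 1. Their median was -0.65, against 0.09 for all genes. Of the 6 only *Ccl22* had groups that did not overlap, below +/+ as 9.55% of all genes were (26.4% lay above), and it did so at 5 reads against 0, within the limit of detection. The 95% intervals were wide, from -3.04 to 0.86 for *Ccl17* and from -3.41 to 0.50 for *Ccl22*, so a change of several fold at these counts was not detectable. Replicate 1 of E18.5 GFP/GFP stood apart at this stage, with lung epithelial markers at 8694 RPM in sum against 18986 to 24189 RPM in the other 3 libraries. Most of this sum was *Sftpc*, at 6444 RPM against 14263 to 18380 RPM. Not all genes of the list were low there. *Epcam*, named after its values were seen, stood at 158 RPM against 102 to 132 RPM. Without replicate 1 of E18.5 GFP/GFP the difference was 0.83 for *Ccl20*, 0.13 for *Cxcl12*, 0.14 for *Cxcr4* and -0.59 for *Cxcl13*, each with the sign turned. *Ccr7*, which was not fitted, had 9 reads in E18.5 GFP/GFP against 1 read in +/+, a ratio of 8.88 (95% counting interval 1.23 to 389), with both GFP/GFP libraries above both +/+ libraries.

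**Figure D3:**
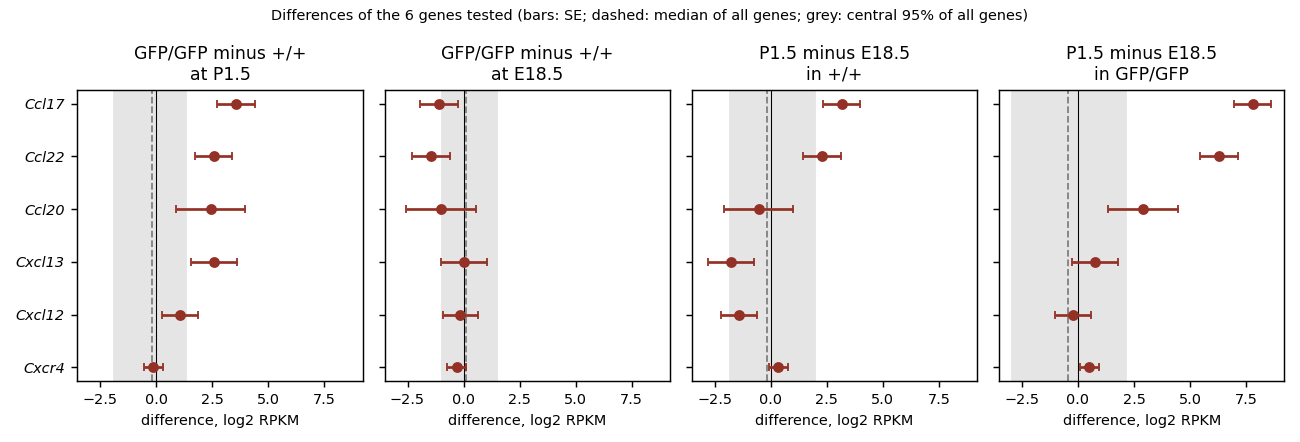
Differences in log2 RPKM of the 6 members tested in 4 comparisons, points for the fitted difference and bars for its SE, with a dashed line at the median of all genes and a grey band over the central 95% of all genes. *Ccl17* and *Ccl22* lie above the band in 3 of the panels, at P1.5 and in both stage comparisons, and below it at E18.5, while *Cxcr4* lies within it in every panel.

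The change from E18.5 to P1.5 was asked in each genotype. In +/+ lungs 0 of 6 passed, where 9 of all genes (0.0576%) did and 1850 had an unadjusted p under 0.05. The P1.5 +/+ libraries were the control against which *Ccl17*, *Ccl20*, *Ccl22* and *Cxcl13* were listed as higher, a choice that favours low values there. For these genes the values in +/+ are therefore a description too. *Ccl17* differed by 3.16 (SE 0.84, limma adjusted p = 0.233) and *Ccl22* by 2.28 (SE 0.84, limma adjusted p = 0.383). For both, the P1.5 libraries lay wholly above E18.5, as they did for 22.3% of all genes, and no member lay wholly below (28.4% of all genes). Values of *Cxcl12* and *Cxcl13* were lower by -1.41 (SE 0.79) and -1.78 (SE 1.03), each with a limma adjusted p of 0.451. Without replicate 1 of P1.5 +/+ the stage difference was 0.04 for *Cxcl12* and -0.17 for *Cxcl13*. Without replicate 2 of P1.5 +/+, which leaves the low library alone in its group, 3 members passed, *Ccl17* at 4.24, *Cxcl12* at -2.86 and *Cxcl13* at -3.39, as did 2166 of all genes. *Ccl20* (-0.54, SE 1.55, limma adjusted p = 0.866) and *Cxcr4* (0.33, SE 0.43, limma adjusted p = 0.682) did not pass either.

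In GFP/GFP lungs the comparison holds the P1.5 libraries that served to choose members, so its values are a description. *Ccl17* went from 1 read to 352 over both libraries, a pooled ratio of 446 (95% counting interval 79.6 to 17675), and *Ccl22* from 0 reads to 148, at least 23.4-fold higher against a floor of 3 reads per library. The fitted log2 differences were 7.79 (SE 0.84) and 6.29 (SE 0.84), which depend on the value that the authors entered for a gene without reads. Both genes passed the limma threshold, as 4.55% of all genes did, and both lay wholly above E18.5, as 18.4% did. Both were chosen with these P1.5 values known, so nothing is read from either count. *Ccl20* differed by 2.89 (SE 1.55), *Cxcl13* by 0.77 (SE 1.03), *Cxcr4* by 0.50 (SE 0.43) and *Cxcl12* by -0.22 (SE 0.79). *Ccr7* went from 9 reads to 66, a pooled ratio of 9.3 (95% counting interval 4.61 to 21.2). The call on *Ccl17* and *Ccl22* was lost without replicate 1 of E18.5 GFP/GFP or without either P1.5 GFP/GFP library, with 0 members passing, although the log2 differences then stayed between 7.46 and 8.13 for *Ccl17* and between 5.31 and 7.27 for *Ccl22*.

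The genotype difference at P1.5 minus that at E18.5 holds the P1.5 values that served to choose 4 of the 6 members, so it too is a description. It was positive for all 6, where 35.6% of all genes were, with a median of 2.99 against -0.33 for all genes. It was 4.64 (SE 1.19) for *Ccl17*, 4.0 (SE 1.19) for *Ccl22*, 3.42 (SE 2.19) for *Ccl20*, 2.55 (SE 1.45) for *Cxcl13*, 1.19 (SE 1.12) for *Cxcl12* and 0.17 (SE 0.61) for *Cxcr4*. No gene of the 15627 passed the limma threshold for this term (0%), and 1599 had an unadjusted p under 0.05. For *Cxcl12* the value was -0.26 without replicate 1 of P1.5 +/+.

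Markers of the cells that make or answer these chemokines were read beside them, and their part in the result was not tested. Of 10 dendritic cell markers 4 were tested and 0 passed at P1.5, with a median log2 difference of 0.66 against -0.20 for all genes. This and the list values below include the low replicate 1 of P1.5 +/+. Their summed level was 27.3 and 70.1 RPM in P1.5 +/+ and 50.7 and 59.8 RPM in P1.5 GFP/GFP. *Batf3*, a transcription factor of cross-presenting dendritic cells, had 66 and 25 reads in P1.5 +/+ and 96 and 297 in P1.5 GFP/GFP, a log2 difference of 1.71 (SE 0.60, limma adjusted p = 0.37). *Itgax*, which encodes CD11c, had 23 and 214 reads in +/+ and 101 and 298 in GFP/GFP, with overlap. *Irf8* and *Zbtb46*, both transcription factors of the lineage, differed by 0.35 (SE 0.54) and 0.10 (SE 0.47). For both, the GFP/GFP libraries lay between those of +/+, so the sign rests on replicate 1 of +/+. *Irf8* stood at 7.51 and 23.9 RPM in P1.5 +/+ and 17.4 and 16.7 RPM in GFP/GFP. The markers of the list that were not tested, named after their values were seen, stayed low at P1.5. *Cd207* had 0 reads in the 4 libraries, and *Cd209a* had 1 and 14 in +/+ and 0 in both GFP/GFP libraries. Reads in +/+ against GFP/GFP were 5 and 28 against 14 and 4 for *Clec9a* and 3 and 15 against 1 and 5 for *Xcr1*. They were 3 and 14 against 8 and 15 for *Flt3* and 3 and 13 against 1 and 11 for *Siglech*.

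The list of 12 markers of mature dendritic cells, which carry CCR7 and make CCL17 and CCL22, had 10 tested and 0 passing at P1.5. In GFP/GFP 8 of the 10 were higher in value, against 38.7% of all genes, with a median of 0.57. The summed level was 374 and 581 RPM in P1.5 +/+ and 425 and 504 RPM in P1.5 GFP/GFP, with overlap. The 4 genes of the list with the most reads are also expressed by other lung cells, and at P1.5 *Fscn1* (0.61, SE 0.73), *Cd200* (0.53, SE 0.36), *Cd40* (0.63, SE 0.39) and *Socs2* (-0.97, SE 0.33) did not pass. *Fscn1* stood at 17.8 and 105 RPM in P1.5 +/+ and 69 and 62.7 RPM in GFP/GFP, so its sign rests on replicate 1 of +/+. *Cd83* and *Relb*, named after their values were seen, had 151 and 236 against 517 and 939 reads and 402 and 331 against 918 and 1244 reads in P1.5 +/+ and GFP/GFP. Their P1.5 differences were 1.54 (SE 0.43, limma adjusted p = 0.311) and 1.21 (SE 0.37, limma adjusted p = 0.34). Other genes of the list, also named after their values were seen, went the other way. *Cd80*, which was not tested, was lower in P1.5 GFP/GFP without overlap, at 0.561 and 0.752 RPM against 1.06 and 1.13 RPM in +/+. *Cd274* differed by -0.10 (SE 0.65). From E18.5 to P1.5 in GFP/GFP, of the 10 only *Relb*, an NF-kappa B subunit of mature dendritic cells, passed (2.11, SE 0.37, limma adjusted p = 0.039), while in +/+ it differed by 0.83 (SE 0.37, limma adjusted p = 0.425).

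**Figure D4:**
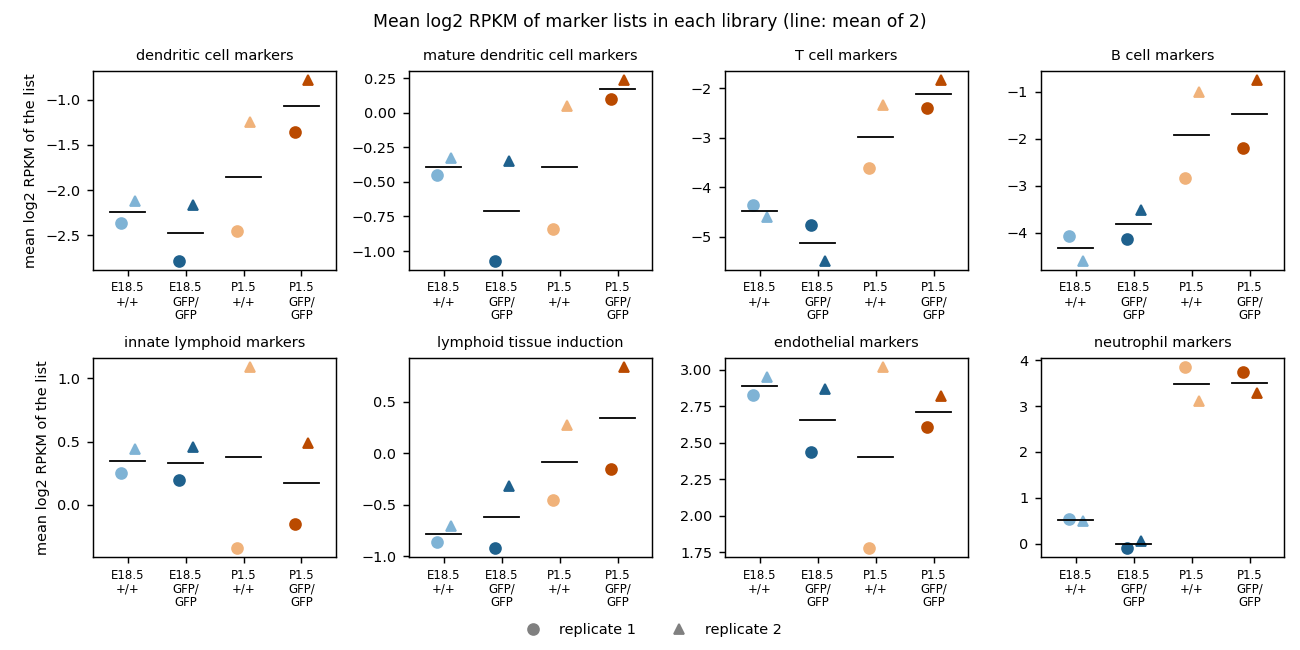
Mean log2 RPKM of 8 marker lists in each library, taken over the genes of each list that were tested, circles for replicate 1, triangles for replicate 2 and a line for the mean of 2. The tested genes of the T and B cell lists lie higher in mean at P1.5 than at E18.5 in both genotypes. Replicate 1 of P1.5 +/+ is the lowest of the P1.5 libraries for 7 of the 8 lists, all but the neutrophil list.

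The tested genes of the lymphocyte marker lists had higher mean log2 RPKM at P1.5 than at E18.5 in both genotypes, and few of them passed. Of 9 T cell markers found, 3 were tested (*Cd3d*, *Cd3g* and *Lck*) and 0 passed at P1.5 by genotype. The summed level of all 9 was 3.13 and 9.61 RPM in P1.5 +/+ against 8.59 and 12.8 RPM in P1.5 GFP/GFP. At E18.5 that sum was 3.66 and 3.37 RPM in +/+ and 5.19 and 3.73 RPM in GFP/GFP, so in +/+ it overlapped between the stages. *Lck* differed by -0.29 (SE 0.55) over the stages in +/+. Over the stages in GFP/GFP, *Cd3g*, a chain of the T cell receptor complex, passed (6.02, SE 0.76, limma adjusted p = 0.021), from 1 read and 0 to 26 and 91. Of 8 B cell markers, 6 were tested and 0 passed at P1.5 by genotype, with summed levels of 16.8 and 40.2 RPM in +/+ and 35.5 and 56.7 RPM in GFP/GFP. *Cd79a* and *Cd79b*, which form the signalling part of the B cell receptor, passed over the stages in GFP/GFP (4.05, SE 0.72, limma adjusted p = 0.039, and 1.74, SE 0.32, limma adjusted p = 0.0424). In +/+ the stage difference was of like size for *Cd79a* (4.03, SE 0.72, limma adjusted p = 0.0905) and was 0.39 (SE 0.32, limma adjusted p = 0.524) for *Cd79b* and 2.78 (SE 0.76, limma adjusted p = 0.251) for *Cd3g*. Whether these stage changes differ between genotypes is not shown by the calls.

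Of 10 innate lymphoid markers 5 were tested and 0 passed at P1.5, with *Il22*, named after its values were seen, at 0 in every library. Of 10 genes of lymphoid tissue induction, the lymphotoxin pathway that acts upstream of *Cxcl13* and *Ccl19* in lymphoid organs, 7 were tested and 0 passed. In P1.5 GFP/GFP 6 were higher in value, against 38.7% of all genes, with a median of 0.55. *Ltbr*, the lymphotoxin receptor, differed by 0.55 (SE 0.39, limma adjusted p = 0.656) and *Nfkb2*, its downstream factor, by 0.04 (SE 0.36, limma adjusted p = 0.975). *Ltb*, named after its values were seen, passed over the stages in GFP/GFP (3.72, SE 0.72, limma adjusted p = 0.0427), with 13 and 35 reads at E18.5 and 120 and 411 at P1.5, and in +/+ it differed by 3.67 (SE 0.72, limma adjusted p = 0.12), with 15 and 32 reads at E18.5 and 201 and 153 at P1.5.

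Markers of other cell types were read for the library that stood apart. In replicate 1 of P1.5 +/+ the 7 endothelial markers summed to 1269 RPM against 2174 RPM in replicate 2 and 2207 and 2226 RPM in GFP/GFP. The 7 fibroblast and pericyte markers, cells that make *Cxcl12* in many organs, summed to 799 RPM against 3860 RPM in replicate 2 and 1012 and 1439 RPM in GFP/GFP. The 9 neutrophil markers summed to 1901 RPM there against 680 RPM, with 1468 and 937 RPM in GFP/GFP. A sum is carried by its most abundant genes, and single genes differed from it. *Cdh5*, an endothelial marker, stood at 94.9 and 488 RPM in P1.5 +/+ and 170 and 272 RPM in P1.5 GFP/GFP. The 8 macrophage markers summed to 234 and 252 RPM in P1.5 +/+ and 178 and 236 RPM in GFP/GFP, the 6 lymphatic endothelial markers to 243 and 393 against 296 and 351 RPM, the 8 lung epithelial markers to 71827 and 35272 against 76896 and 56473 RPM, and the 4 red cell markers found to 1478 and 1174 against 2263 and 2778 RPM. Neutrophil, fibroblast, macrophage, lymphatic and epithelial sums overlapped between genotypes at P1.5. Endothelial and red cell sums were higher in GFP/GFP without overlap, but the mean log2 RPKM of these lists did not bear this out. For endothelial markers it overlapped, at 1.78 and 3.02 in +/+ and 2.61 and 2.82 in GFP/GFP. For red cell markers it was lower in GFP/GFP, at 3.84 and 4.09 against 5.11 and 5.11 in +/+. *Hba-a2* stood at 453 and 164 RPM in +/+ and 3.11 and 3.79 RPM in GFP/GFP. What part these cell types have in the members' values was not tested.

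The genes whose pattern over the 8 libraries was most like each member were taken from 13629 genes with a mean of at least 50 reads, by Pearson r of log2 RPKM, as a description of points that share libraries and depth. *Ccl17* was most like *Mrps18c* (r = 0.98), *Phkg1* (0.97) and *Chchd2* (0.97), where the last 2 overlap and share reads. *Ccl22* was most like *Prss23* (0.98), *Cd300lf* (0.97) and *Ostm1* (0.96), and *Ccl20* like *Ccz1* (0.97), *Slc7a5* (0.95) and *Mrpl15* (0.94). None of these is a chemokine gene. *Cxcl13* was most like *Tipin*, *F2rl1* and *Ddx1* (each 0.98), *Cxcl12* like *Gnb1*, *Mfap4* and *Cd180* (each 0.99), and *Cxcr4* like *Cd151* (0.97), *Rab31* (0.97) and *Foxq1* (0.96). Among the members, *Ccl17* and *Ccl22* had r = 0.91 and *Cxcl12* and *Cxcl13* r = 0.80, while *Ccl17* and *Cxcl13* had r = 0.03.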

How the data were processed

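Lung RNA libraries were made from total RNA with a directional kit and sequenced by the authors. Per the study's methods and processing notes, reads were basecalled with CASAVA 1.8, trimmed with Trim Galore 0.4.0, mapped to mm10 with TopHat2 2.1.1 guided by an mRNA annotation and counted in SeqMonk. The authors deposited log2 RPKM values, 1 column per library, and the strand setting of the counting is not given in the sources used here. That the kilobases are the whole gene span and that genes no read hit were entered as 0.9 read was inferred from the values, and reads, RPM and limits of detection rest on it. Whole reads were recovered from the steps of these values (99.86% to 99.97% within 0.02 of a whole number), which gave the totals.

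The 15627 genes averaging 0.05 RPKM or more entered a linear model in limma (version 3.58.1, R 4.3.3) with 4 group means, 4 residual degrees of freedom, a trend in the prior and no added pseudocount. P-values were two-sided and Benjamini-Hochberg adjusted over all genes tested, with a threshold of 0.05. An exact permutation test of 2 against 2 libraries cannot go below 0.33 and was not used. Exact 95% binomial intervals were computed on pooled reads and cover counting error only. Gene lengths came from GENCODE M21 and promoters from RefSeq (GRCm38.p6).

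The members and marker lists were chosen with earlier results of these data known. Genes named were all members and their partners, the 4 genes with the most reads in each list, and the 3 genes most like each member by Pearson r; other genes are said to be named after their values were seen. Numbers were summarised in Python 3.11.15 (pandas 2.3.3, numpy 2.4.6, scipy 1.17.1) and plotted with matplotlib 3.10.9.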

Additional observations from a re-analysis of the deposited data

Results flagged for a closer look

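*Ccl22* had both GFP/GFP libraries above both +/+ libraries at P1.5, with a log2 difference of 2.55, and both below at E18.5, with a log2 difference of -1.45. The E18.5 order rests on 3 and 2 reads in +/+ against 0 and 0 in GFP/GFP, none above the limit of detection of 3 reads. The difference between the stages was 4.0 (SE 1.19) and did not pass after adjustment over all genes in limma.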

How the results depend on the processing

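Leaving out libraries in turn, the genes passing in the P1.5 comparison numbered 0 to 24 (2 with all libraries), at E18.5 0 to 1 (3), from E18.5 to P1.5 in +/+ 0 to 2166 (9) and in GFP/GFP 0 to 4874 (711), and for the genotype by stage term 0 to 2 (0). Members passing numbered 0 to 3 over the stages in +/+ (0) and 0 to 2 in GFP/GFP (2). For the P1.5, E18.5, +/+ stage and GFP/GFP stage comparisons in turn, where the count moved by over 1.5 times, genes passing were 11, 6 and 16 with a pseudocount of 0.1 RPKM (the first 3), 5, 17 and 237 with 1 RPKM (all but E18.5), 21, 22, 35 and 349 with no filter, 1 and 52 at E18.5 and in +/+ with a mean of at least 0.5 RPKM, 0, 0, 5 and 1279 with median centring, 0, 0 and 49 with quantile normalization (the first 3), 5 and 8 at P1.5 and E18.5 with a prior without a trend, 4 in +/+ with a robust prior, 0, 0, 0 and 129 with voom, and 0 and 1 at P1.5 and E18.5 with the 4 libraries of the stage alone. In GFP/GFP over the stages 1 member passed with a pseudocount of 1 RPKM and 1 with a mean of at least 0.5 RPKM, the setting under which *Ccl22* was not tested. With the replicate block the same comparisons had 9, 1, 105 and 4160 genes passing, and it changed no call on a member. The labels give same-numbered libraries only a shared number, and *Xist* reads set replicate 1 apart from replicate 2 in every group. Their deviations were correlated at r = 0.23 at E18.5 and 0.21 at P1.5. No member passed at E18.5 under any alternative run. At E18.5 the log2 difference of *Cxcl13* (0.03) was -0.18 with median centring and -0.22 with quantile normalization. Leaving out libraries, it ran from -0.59 to 0.64, that of *Cxcl12* from -0.41 to 0.13, of *Ccl20* from -2.84 to 0.83 and of *Cxcr4* from -0.74 to 0.14. Over the stages in +/+ the same ranges were -1.75 to 0.68 for *Ccl20*, -2.86 to 0.04 for *Cxcl12* and -0.10 to 0.75 for *Cxcr4*. Of 537 differences of members under alternatives, 516 kept their sign and 21 did not, all 21 in *Cxcr4*, *Cxcl12*, *Cxcl13* and *Ccl20* and 0 in *Ccl17* and *Ccl22*, and 3 came to pass. The cause was not tested. With a pseudocount of 1 RPKM the P1.5 differences of *Ccl17* and *Ccl22* were 1.83 and 0.39. *Ccl19*, *Ccr4* and *Ccr6* lay at or under 3 reads in every library, so no difference was detectable in them. For *Ccl19*, whose span overlaps another listed gene, whether depth set the 0 reads was not tested.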

Other observations

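*Ccl22* and *Ccl17* lie 58753 bases apart on chromosome 8, with 1 listed gene between them, *Cx3cl1*, which encodes a membrane-bound chemokine and was named after its values were seen. *Cx3cl1* had 269 and 299 reads in E18.5 +/+, 222 and 167 in E18.5 GFP/GFP, 88 and 194 in P1.5 +/+ and 269 and 337 in P1.5 GFP/GFP. Its P1.5 log2 difference was 0.86 (SE 0.46, limma adjusted p = 0.543), so it did not pass, and its level before birth was far above that of both neighbours in reads.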
